A study of Mus musculus with 6 samples.

Results

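The brush border is the dense array of microvilli on the apical side of small intestinal enterocytes. The enzymes anchored in its membrane cleave the last bonds of sugars, peptides and phosphate esters before the products are absorbed, and they mark enterocytes that have matured as they leave the crypt. Examined here were 9 genes of this surface: Alpi (intestinal alkaline phosphatase), the disaccharidase genes Sis (sucrase-isomaltase), Mgam (maltase-glucoamylase), Treh (trehalase) and Lct (lactase), the peptidase genes Anpep (aminopeptidase N), Dpp4 (dipeptidyl peptidase) and Mep1a (the alpha subunit of meprin), and Vil1, which encodes villin, an actin-bundling protein of the microvillus core and not an enzyme. The 9 genes were listed by name, with earlier results of these data known, and all 9 were found among the 55416 genes of the table. They were measured in organoids grown from small intestinal crypts of C57BL/6 mice whose genotype is given as WT. Organoids are cultures of epithelium without the surrounding tissue. Those of each of 3 mice were kept for 5 days with 50 μg/ml low-density lipoprotein (LDL) or with the vehicle PBS, so that each mouse gave 1 LDL-treated and 1 PBS-treated library, and the replicate number stands for the mouse. The comparison asked how LDL in the medium changed gene expression of the epithelium itself.

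Each library held 22061545 to 31073360 reads on genes, and the values are normalized counts, that is, reads divided by 1 size factor per library. The ribosomal gene Rn18s-rs5 took 7.62% of the reads of the LDL-treated library of mouse 1 and 3.02% of those of the PBS-treated library of mouse 2, against 0.083% to 0.225% in the other libraries. The animal identifier of mouse 3 begins with other letters than those of mice 1 and 2, although the genotype of all 3 is given as WT, and the values of the 9 genes are therefore also given without mouse 3 where a call changes. Without mouse 3 and without a term for the mouse 0 of all genes were called, so no call of that fit named below, in the 9 genes or in others, was made then. Of the 18459 genes tested, 0.878% were called upregulated and 0.395% downregulated with LDL (1.27% in all) by limma without a term for the mouse. A call needs an adjusted p below 0.05 together with more than 1.5-fold change. With the mouse as a block these shares were 5.68% and 3.46% (9.14% in all). The libraries are paired by mouse, and the fit without that term counts differences between mice as error.

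Of the 9 genes, 1 was upregulated (Alpi) and 0 were downregulated without a term for the mouse, and 0 were also downregulated by DESeq2 and by edgeR without that term. The unadjusted p from limma was below 0.05 for 2 genes that were higher and 3 that were lower. Over all genes tested that p was below 0.05 for 19.7%, 9.96% being higher and 9.73% lower, which is the background of each such count below. With the mouse as a block, Alpi was upregulated and 3 genes, Lct, Dpp4 and Mep1a, were downregulated. Within the mice, 2 genes were higher with LDL in all 3 (Alpi and Vil1), 6 were lower in all 3, and Treh went both ways. Among all genes tested, 24.2% were higher and 26.8% lower in each of the mice. The log2 fold changes had a median of −0.32 over the 9 genes and −0.016 over all genes tested. Since RNA came from whole organoids, fewer enterocytes and less RNA per enterocyte cannot be told apart in any of these values.

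**Figure D1:**
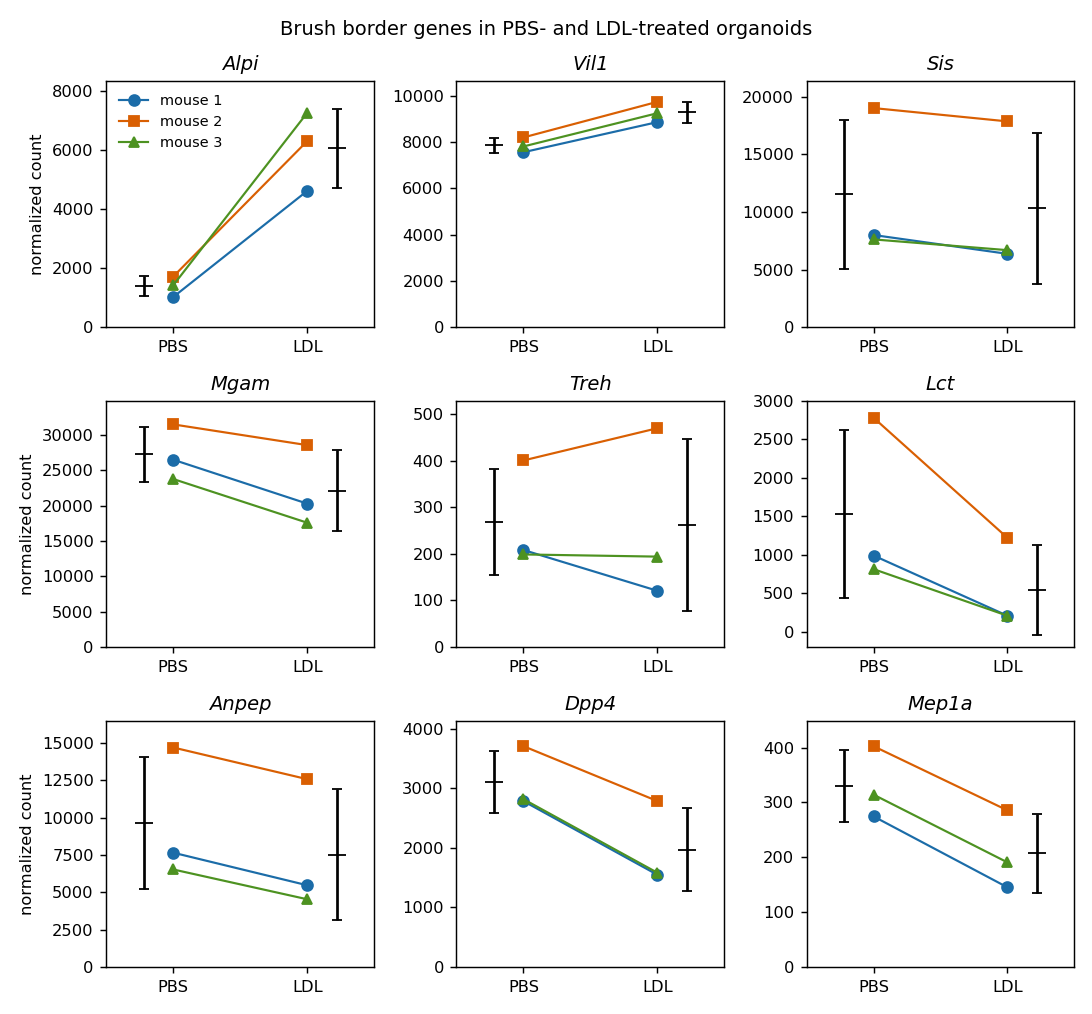
Normalized count (linear y axis) of the 9 genes in PBS- and LDL-treated organoids, with a line joining the 2 libraries of each mouse, and horizontal and vertical bars beside the points for the mean and SD of the 3 libraries (the lower end of the LDL bar of Lct falls below 0). Alpi rises from at most 1721 with PBS to at least 4623 with LDL, whereas mouse 2 lies above the other mice in most panels.

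Alpi lies on chromosome 1 of GRCm39 (87025724 to 87029328, minus strand). Alkaline phosphatase releases phosphate from food and from bacterial lipopolysaccharide at the enterocyte surface. Its promoter and the stretch it shares with its neighbor Akp3 are shown first, the promoter for its motif and the stretch because it bears on whether reads of the 2 phosphatase genes can be mixed. The promoter is the 250 bases before the start of the canonical transcript in GENCODE M39, 5′ to 3′ on the strand of the gene. Capitals mark the letters CAAAGTCCA, a binding motif of the hepatocyte nuclear factor HNF4, a regulator of enterocyte genes.
Alpi, chr1:87029329-87029578, minus strand: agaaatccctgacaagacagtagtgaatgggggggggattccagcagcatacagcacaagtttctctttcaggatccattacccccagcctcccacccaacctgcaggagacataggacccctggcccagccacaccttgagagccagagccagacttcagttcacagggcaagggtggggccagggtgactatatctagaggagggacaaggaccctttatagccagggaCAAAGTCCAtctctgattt
The match lies 19 to 11 bases before the start. The letters were found on either strand in 0.372% of 21770 promoters of the same length, among them 2 of the 9 genes. Coding exons of Alpi and Akp3 are similar, and the longest run they share is 68 bases in exon 2 of the 11 exons of Alpi.
Alpi, exon 2, chr1:87028991-87029058, minus strand: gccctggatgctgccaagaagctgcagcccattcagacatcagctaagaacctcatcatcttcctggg
Their transcripts were identical at 81.8% of 1653 aligned bases. Alpi has no word of 100 bases in common with the transcripts of another gene, and neither has any other of the 9 genes.

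Alpi had normalized counts of 4623, 6310 and 7268 in the LDL-treated organoids of mice 1, 2 and 3, and of 1028, 1721 and 1426 in the PBS-treated organoids. The lowest LDL value was above the highest PBS value, as for 11.9% of all genes tested, while 12.3% showed the opposite order. The means were 6067 ± 1339 and 1392 ± 348 (SD, n = 3), and the log2 fold change was 2.13 (standard error 0.22, adjusted p = 0.0083 from limma). Within mice 1, 2 and 3 Alpi was 4.49-, 3.67- and 5.09-fold higher with LDL. The 3 mice moved together, and treatment accounted for 93.1% of the variation of its log2 values. With the LDL-treated library of mouse 3 left out the log2 fold change was 1.99 and the adjusted p from limma 0.0607, so that it was not called. Without both libraries of mouse 3 the log2 fold change was 2.02 (adjusted p = 0.363), in a fit that called 0 of all genes, and with the mouse as a block Alpi was called in the remaining 4 libraries (adjusted p = 0.0036).

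Akp3 encodes a second alkaline phosphatase of the duodenum and lies near Alpi on chromosome 1 (87052695 to 87055634) on the opposite strand. Its normalized counts were 3775, 6780 and 7975 with LDL and 1230, 2454 and 2309 with PBS, again without overlap. The change was 1.62 on the log2 scale (standard error 0.34). Akp3 missed the threshold without a term for the mouse (adjusted p = 0.0637 from limma) and was upregulated with the block (adjusted p = 5.2e-05). The number of Alpi reads per Akp3 read, on normalized counts, was 1.22, 0.931 and 0.911 with LDL and 0.836, 0.701 and 0.618 with PBS. Every LDL value of this ratio was above every PBS value, but how often ratios of 2 genes separate in this way was not tested.

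Vil1, on chromosome 1 from 74448535 to 74475933, had normalized counts of 8861, 9737 and 9246 with LDL and 7560, 8199 and 7809 with PBS. The groups did not overlap, although the change was small. The means were 9281 ± 439 and 7856 ± 322 (SD, n = 3), and the fold within the mice was 1.17, 1.19 and 1.18. The log2 fold change of 0.24 had a 95% confidence interval from 0.03 to 0.45 and was not called, with a limma adjusted p of 0.194 and of 0.075 with the block. Vil1 shares 1265 exonic bases with Usp37, a deubiquitinase gene on the opposite strand, and the strand setting of the read counting is not given in the sources used here. Usp37 had normalized counts of 1758 to 1987 with LDL and 1709 to 2003 with PBS, and its part in the value of Vil1 was not tested.

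Of the disaccharidase genes, Lct, Sis and Mgam were lower with LDL in each mouse, and Lct had the largest log2 fold change of them. Lactase splits the sugar of milk, and its gene is known for falling activity after weaning. The promoters of Lct, Sis and Treh are shown so that their motifs can be compared, as their products all split disaccharides. Capitals mark TTTATG, a motif of the caudal factors CDX, in Lct and Sis, AGATAA, a motif of GATA factors, in Lct, GTTAAT, a part of the HNF1 motif, in Sis, and CAAAGTCCA of HNF4 in Treh, each on either strand.
Lct, chr1:128256056-128256305, minus strand: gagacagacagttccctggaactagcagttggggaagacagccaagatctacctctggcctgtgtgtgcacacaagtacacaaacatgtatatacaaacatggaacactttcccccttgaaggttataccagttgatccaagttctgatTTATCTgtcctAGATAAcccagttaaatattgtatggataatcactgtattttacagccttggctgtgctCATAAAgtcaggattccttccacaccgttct
Sis, chr3:72875197-72875446, minus strand: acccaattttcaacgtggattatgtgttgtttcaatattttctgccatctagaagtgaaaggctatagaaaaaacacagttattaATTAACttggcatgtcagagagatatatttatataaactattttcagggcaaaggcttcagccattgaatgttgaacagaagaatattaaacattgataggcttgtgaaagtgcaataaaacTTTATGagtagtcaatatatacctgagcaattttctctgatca
Treh, chr9:44584280-44584529, plus strand: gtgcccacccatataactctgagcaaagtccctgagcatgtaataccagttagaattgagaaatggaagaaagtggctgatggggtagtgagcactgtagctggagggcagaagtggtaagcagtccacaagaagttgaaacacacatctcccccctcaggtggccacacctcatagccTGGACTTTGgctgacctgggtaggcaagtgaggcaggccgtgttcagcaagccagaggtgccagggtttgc
The CDX letters were in 2179 of the 21770 promoters and also in that of Mep1a, the GATA letters were in 9.60% and also in those of Mgam and Dpp4, and the HNF1 letters were in 6.28%. None of the searched motifs overlapped another in these windows. The direct repeat bound by peroxisome proliferator-activated receptors (PPAR DR1), searched in the same way, was in 0.349% of all promoters and in 0 of the 9.

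Lct lies on chromosome 1 from 128212493 to 128256055. It had normalized counts of 207, 1220 and 207 in LDL-treated and 990, 2781 and 813 in PBS-treated organoids. In all mice the LDL value was lower, at 0.210, 0.439 and 0.256 of the PBS value, but the LDL value of mouse 2 lay above the PBS values of mice 1 and 3. The means were 545 ± 584 and 1528 ± 1089 (SD, n = 3). The log2 change of −1.80 was not called without a term for the mouse (standard error 0.73, adjusted p = 0.227 from limma). With the block Lct was downregulated, with a standard error of 0.18, a 95% confidence interval from −2.22 to −1.38 and an adjusted p-value of 0.00092. Treatment accounted for 44.2% and the mouse for 53.1% of its variation. Lct was also called in the fit without a block when the LDL-treated library of mouse 2 was left out (log2 change −2.65). Over the 20 alternatives its log2 change ranged from −2.65 to −0.83. It was smallest, and not called, without both libraries rich in ribosomal reads.

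Sis (chromosome 3, 72795890 to 72875196) encodes the enzyme that splits sucrose and isomaltose. Its normalized counts were 6372, 17861 and 6692 with LDL and 8006, 19016 and 7625 with PBS. Mouse 2 held more than the other mice in both treatments, and 97.0% of the variation lay between mice against 2.40% between treatments. Sis was 0.796, 0.939 and 0.878 of the PBS value within the mice, and its log2 fold change of −0.20 had a 95% confidence interval from −1.29 to 0.88. With the block the interval narrowed to −0.40 to −0.0035, and the adjusted p-values from limma were 0.857 and 0.160. The direction depends on which libraries enter: it was 0.06 on the log2 scale when the LDL-treated library of mouse 1 was left out, 0.02 when that of mouse 3 was, and 0.22 when the PBS-treated one of mouse 2 was.

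Mgam (chromosome 6, 40605765 to 40746057), which releases glucose from the ends of starch fragments, had the highest counts of the 9 genes. They were 20276, 28542 and 17576 with LDL and 26482, 31473 and 23752 with PBS. Every mouse was lower with LDL, to 0.766, 0.907 and 0.740 of its PBS value, while the groups overlapped. The log2 change of −0.32 was not called (limma adjusted p = 0.422, or 0.0796 with the block). Downstream of Mgam on the same strand lies Mgam2-ps (40755628 to 40845098), which resembles Mgam and whose symbol carries the pseudogene suffix. Its counts were higher with LDL, and whether it yields an enzyme was not tested. Mgam2-ps had 4252, 2772 and 2849 with LDL and 1335, 915 and 1199 with PBS, and was called upregulated at 1.51 on the log2 scale (limma adjusted p = 0.0186). The transcripts of Mgam and Mgam2-ps matched at 66.9% of aligned bases, with a longest shared run of 74 bases. Per read of Mgam there were 0.210, 0.0971 and 0.162 normalized reads of Mgam2-ps with LDL and 0.0504, 0.0291 and 0.0505 with PBS.

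Treh (chromosome 9, 44584530 to 44597602), which splits the fungal sugar trehalose, had counts of 121, 469 and 194 with LDL and 208, 400 and 199 with PBS. The ratio to PBS was 0.582 in mouse 1, 1.17 in mouse 2 and 0.977 in mouse 3, so the mice did not share a direction. The log2 fold change of −0.20 had a 95% confidence interval from −1.31 to 0.92, and with the block one from −0.63 to 0.24. Its adjusted p-value from limma was 0.866, and 0.545 with the block.

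The peptidase genes Anpep, Dpp4 and Mep1a were lower with LDL in each mouse. Anpep (chromosome 7, 79471551 to 79510807), which removes single amino acids from peptide ends, had counts of 5470, 12578 and 4532 with LDL and 7652, 14700 and 6529 with PBS. The values of mouse 2 stood above all others, and the ratio within mice 1, 2 and 3 was 0.715, 0.856 and 0.694. With the block the log2 fold change of −0.41 had an adjusted p-value of 0.0203 from limma but stayed under 1.5-fold, so Anpep was not called in either fit. At any fold, 15.7% of all genes passed the adjusted p-value in that fit.

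Dpp4 (chromosome 2, 62159798 to 62242576), which removes dipeptides and inactivates incretin hormones, had counts of 1549, 2787 and 1583 with LDL and 2787, 3710 and 2819 with PBS. The LDL value of mouse 2 and the PBS value of mouse 1 were nearly equal, and all other LDL values lay below all PBS values. Its change was −0.70 on the log2 scale, with a limma adjusted p of 0.158, and with the block Dpp4 was downregulated with an adjusted p-value of 0.0044 and a 95% confidence interval from −0.93 to −0.46. Dpp4 was 0.556, 0.751 and 0.562 of the PBS value within the mice.

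Mep1a (chromosome 17, 43785215 to 43813703) encodes a subunit of the metalloprotease meprin and had counts of 145, 286 and 191 with LDL and 275, 403 and 314 with PBS. Again only the LDL value of mouse 2 exceeded a PBS value. The log2 fold change of −0.71 had an adjusted p-value of 0.184 from limma and, with the block, of 0.0088, at which Mep1a was downregulated. Dpp4 and Mep1a were no longer called with the block when both libraries of mouse 3 were left out (adjusted p = 0.106 and 0.134 from limma). In mice 1 and 2, Dpp4 was 0.556 and 0.751 of the PBS value and Mep1a 0.530 and 0.710. The gene of the partner subunit, Mep1b, had counts of 948, 910 and 871 with LDL and 408, 685 and 398 with PBS. Mep1b was upregulated with the block (log2 fold change 0.92, adjusted p = 0.0074 from limma, and 0.0745 without the block). The normalized reads of Mep1a per read of Mep1b were 0.153, 0.314 and 0.219 with LDL and 0.672, 0.588 and 0.789 with PBS. The highest LDL value lay below the lowest PBS value. The 2 genes changed in opposite directions, which itself parts their ratio, and a background for such ratios was not computed.

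**Figure D2:**
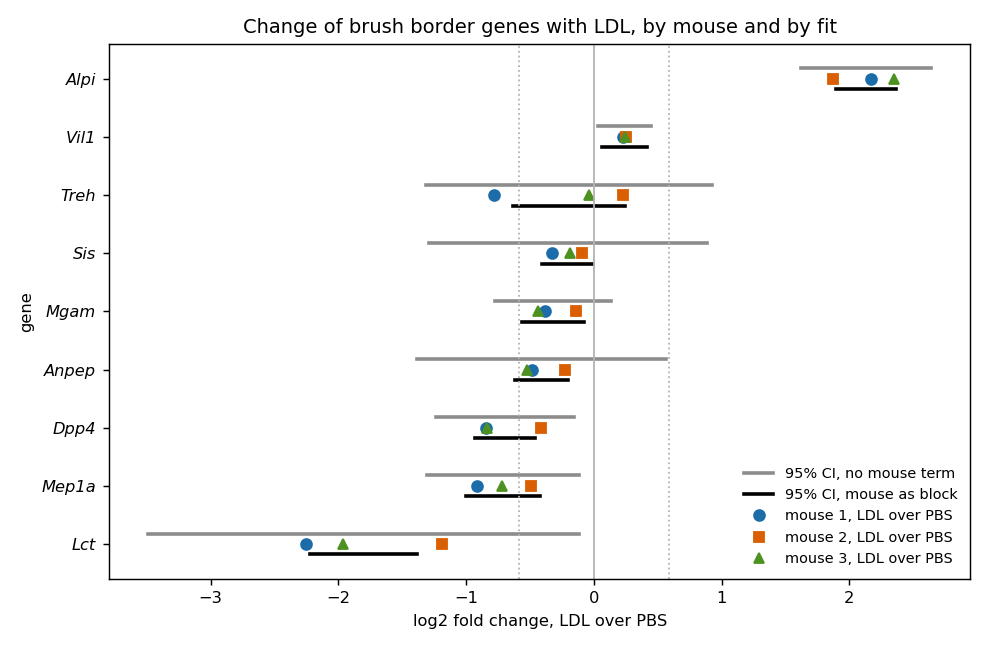
Log2 fold change (LDL over PBS) of the 9 genes, with points for the 3 mice, the grey bar for the 95% confidence interval without a term for the mouse and the black bar for that with the mouse as a block (dotted lines, 1.5-fold). The points of Alpi all lie above 1.87 and those of Lct all below −1.18, and the grey bars are wider than the black ones for every gene.

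**Figure D3:**
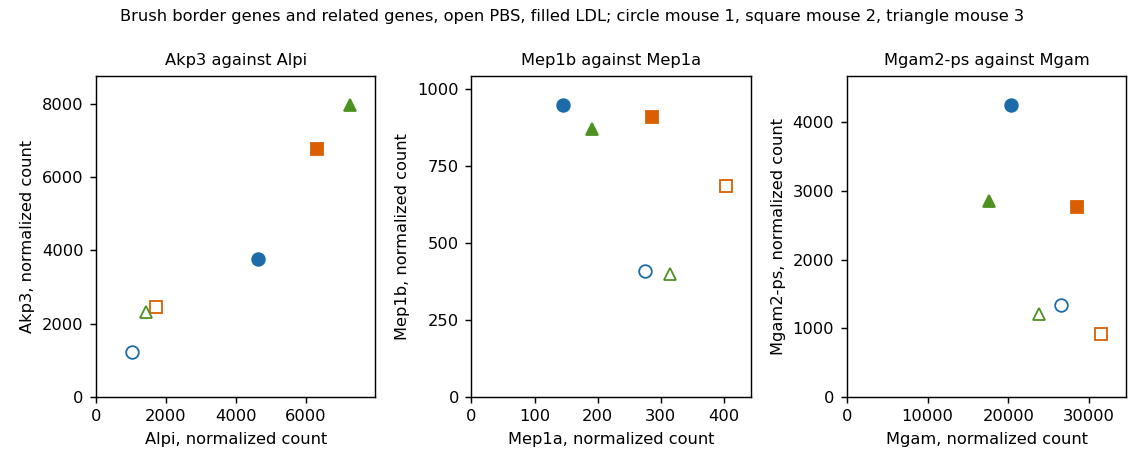
Normalized counts of Akp3 against Alpi, Mep1b against Mep1a and Mgam2-ps against Mgam in the 6 libraries (linear axes from 0; open symbols PBS, filled symbols LDL; circle, square and triangle for mice 1, 2 and 3). In the first panel both genes are higher with LDL, whereas in the other panels the gene on the y axis is higher and the gene on the x axis lower in each mouse.

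Levels of different genes were compared per length, as normalized counts per kilobase of exon. With PBS the order was Anpep (2320 ± 1068, SD, n = 3), Mgam (2252 ± 324), Vil1 (1619 ± 66.4), Sis (1547 ± 867), Alpi (596 ± 149), Dpp4 (354 ± 59.7), Lct (239 ± 170), Treh (131 ± 55.5) and Mep1a (95.7 ± 19.0). Neighbors in this order did not overlap over the 3 libraries for Mgam above Vil1, Sis above Alpi and Alpi above Dpp4, and Anpep and Mgam, Vil1 and Sis, Dpp4 and Lct, Lct and Treh, and Treh and Mep1a overlapped. With LDL the order became Alpi (2596 ± 573), Vil1 (1913 ± 90.5), Mgam (1830 ± 472), Anpep (1814 ± 1060), Sis (1381 ± 877), Dpp4 (225 ± 80.4), Treh (128 ± 89.7), Lct (85.0 ± 91.2) and Mep1a (60.0 ± 20.8). In this order only Sis and Dpp4 were neighbors without overlap. Alpi was the fifth of the 9 genes in each PBS-treated library, the first in the LDL-treated libraries of mice 1 and 3 and the second in that of mouse 2, where Anpep was higher.

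The summed level of the 9 genes per kilobase was 7963, 13311 and 8820 with LDL and 7758, 12288 and 7415 with PBS. It was higher with LDL in each mouse, while its makeup differed. Alpi made up 24.8%, 20.3% and 35.3% of this sum with LDL and 5.67%, 5.99% and 8.23% with PBS. Without Alpi and Vil1, the sum of the other 7 genes was 4158, 8604 and 3805 with LDL and 5760, 9862 and 5195 with PBS, which is lower with LDL in each mouse. The 2 genes left out are those that were higher in every mouse, so the lower sum follows from that choice. The ratio of Alpi to Lct, per kilobase, was 61.1, 14.2 and 96.1 with LDL and 2.85, 1.70 and 4.81 with PBS.

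Apart from LDL, the mice themselves differed. Mouse 2 had the highest value of the 3 mice for 9 of the 9 genes with PBS and for 8 of the 9 with LDL, the exception being Alpi, for which mouse 3 was highest. Mouse 2 was the highest in both treatments for 19.6% of all genes tested. The mouse accounted for 87.5% of the variation of Treh and of Anpep, 64.0% of that of Mgam, 42.5% of that of Mep1a and 39.2% of that of Dpp4, but for 6.13% of that of Alpi and 15.7% of that of Vil1. The PBS-treated library of mouse 2 was one of the libraries rich in ribosomal reads, whereas its LDL-treated library, also high in these genes, had the lowest share. When both libraries rich in ribosomal reads were left out, Alpi was still called, and the log2 fold changes of Sis, Treh and Anpep turned to 0.48, 0.57 and 0.095. This setting leaves mouse 2 with its LDL-treated library alone.

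**Figure D4:**
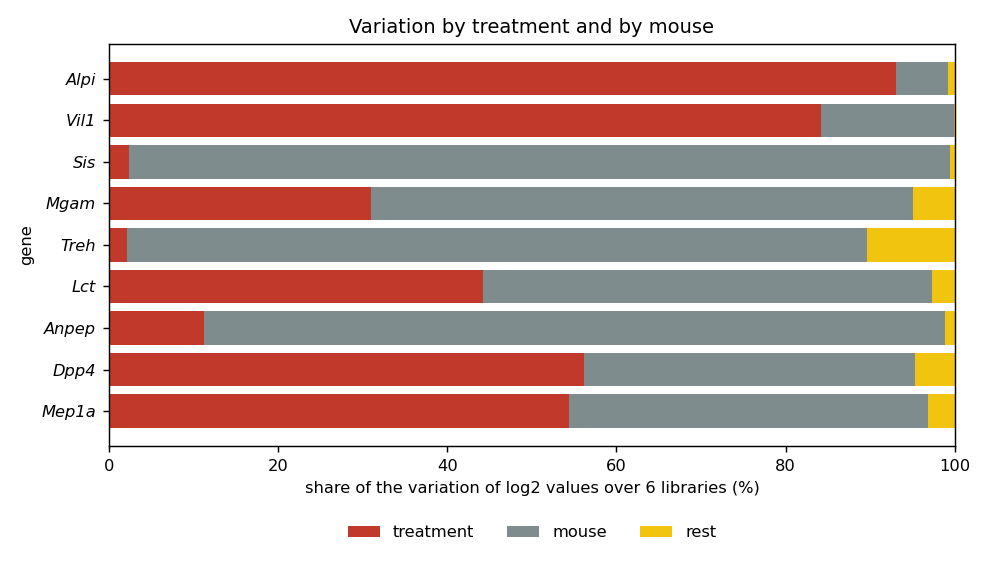
Share of the variation of log2 normalized counts over the 6 libraries (x axis, percent) that lay between treatments, between mice and in the rest, for each of the 9 genes. The treatment takes 93.1% for Alpi and 84.2% for Vil1, and the mouse takes 97.0% for Sis.

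The genes whose pattern was most like the mean pattern of the 9 genes, by Pearson's correlation of log2 values over the 6 libraries among 11903 genes, were Slc33a1 (r = 0.995), Hcn3 (0.994), Gramd2b (0.993), Cyp2j6 (0.990) and Hagh (0.990). Cyp2j6, for example, had counts of 3115, 4812 and 3315 with LDL and 3602, 5051 and 3441 with PBS, with mouse 2 highest in both treatments. The 6 libraries share 3 mice, and mouse 2 was the highest in both treatments for each of these 5 genes. They were picked for likeness to a mean of genes mostly highest in mouse 2, so this follows from the choice. Each of the 9 genes is itself part of that mean. Among them Alpi (r = −0.095) and Vil1 (r = 0.14) were the least like it, and Sis was the most like it (r = 0.988).

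Other hydrolases of the brush border were examined as a list of 19 genes, of which 16 passed the filter on low values. By limma without a term for the mouse 0 were called, and the unadjusted p was below 0.05 for 3 that were higher and 2 that were lower. Without that term edgeR also called 0, and DESeq2 called 2 upregulated and 1 downregulated. In each mouse 3 were higher and 11 lower after LDL, and the median log2 fold change was −0.25. With the block, 3 were upregulated (Akp3, Mep1b and Tmprss15, the gene of enteropeptidase) and 5 were downregulated, among them Naaladl1, Ace, Dpep1 and Asah2. Naaladl1, a peptidase gene, had counts of 305, 696 and 304 with LDL and 1374, 1932 and 793 with PBS, without overlap. Its log2 fold change of −1.67 had an adjusted p-value of 0.0874 from limma and of 0.00057 with the block. Ace, which encodes the angiotensin-converting enzyme, had counts of 395, 1440 and 419 with LDL and 1318, 3133 and 1156 with PBS, and its log2 fold change of −1.44 was called only with the block (adjusted p = 0.200 and 0.00038 from limma). Tmprss15, which activates pancreatic trypsinogen, was low, with counts of 24.4, 11.8 and 32.6 with LDL and 1.02, 2.49 and 15.5 with PBS. Its PBS counts alone would not have passed the filter on low values, so its call rests on the group where it is high.

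**Figure D5:**
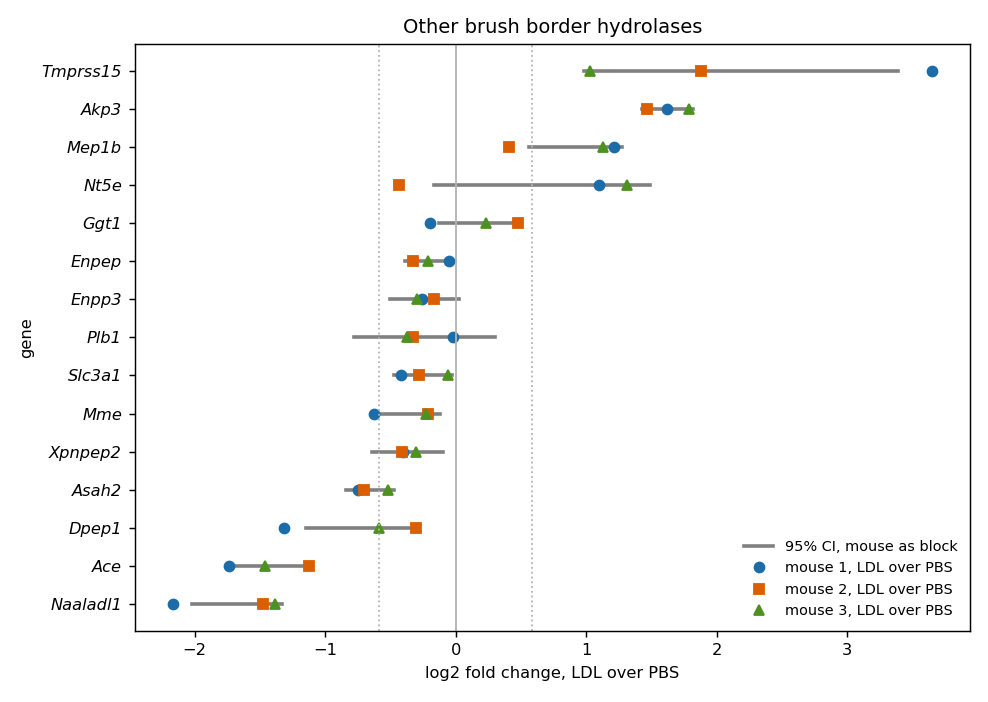
Log2 fold change (LDL over PBS) of the other brush border hydrolases that were tested and are reported here, with points for the 3 mice and bars for the 95% confidence interval with the mouse as a block (dotted lines, 1.5-fold). Naaladl1 and Ace lie lowest in all mice and Akp3 lies above 1.46 in each.

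Genes that build the microvillus were a list of 20, and 19 were tested. By limma without a term for the mouse 0 were called, with an unadjusted p below 0.05 for 9 that were higher and 2 that were lower. Here edgeR called 0 and DESeq2 called 3 upregulated, and the median log2 fold change was 0.27. By log2 fold change 13 were higher and 6 lower, and in each mouse 10 were higher and 4 lower with LDL. With the block, Ezr, which encodes the membrane linker ezrin, Myo1e and Actb were upregulated and Baiap2l2 was downregulated. Ezr had counts of 16671, 9701 and 14869 with LDL and 7646, 7538 and 7569 with PBS, and a log2 change of 0.82 (limma adjusted p = 0.0811, and 0.0084 with the block). Myo1e, a motor protein gene, and Actb, the gene of beta-actin, had log2 fold changes of 0.76 and 0.69, with adjusted p-values of 0.0549 and 0.0714 from limma.

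Among 20 transcription factor genes of enterocytes, 1 was called without a term for the mouse. Isx, an intestinal homeobox gene that represses carotenoid cleavage, had counts of 359, 602 and 317 with LDL and 5.10, 2.49 and 3.26 with PBS, and it was upregulated by 6.51 on the log2 scale (adjusted p = 0.00036 from limma). The PBS counts of Isx alone would not have passed the filter on low values. The median of the list was −0.09. Cdx1 had a log2 fold change of −0.58 and Vdr, the vitamin D receptor gene, of −0.44, and neither was called (adjusted p = 0.0981 and 0.238 from limma). With the block Prdm1 joined Isx, from counts of at most 15.3 with PBS. Hnf4a, whose motif is printed above for Alpi and Treh, had counts of 16973, 19266 and 17815 with LDL and 19935, 21071 and 21016 with PBS, and a log2 fold change of −0.20 (adjusted p = 0.334).

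Absorption and lipid genes of enterocytes were a list of 19. Fabp1, the gene of a fatty acid binding protein, had counts of 26670, 69615 and 36032 with LDL and 4197, 10487 and 5127 with PBS. By limma it was the only one called without a term for the mouse (log2 fold change 2.74, adjusted p = 0.0285). Without that term edgeR also called 1, and DESeq2 called 6. With the block, 8 were upregulated and 1, the peptide transporter gene Slc15a1, was downregulated, and the median log2 fold change was 0.44. Besides Fabp1 the genes upregulated with the block were Rbp2 (log2 fold change 1.26), Apoa4 (1.18), Ada, Mttp, Krt20, Fabp2 and Apob. Apoa4, an apolipoprotein gene of chylomicrons, had counts of 1880, 4203 and 3024 with LDL and 806, 2182 and 1171 with PBS. Rbp2, a retinol binding protein gene, had 1711, 3602 and 2560 with LDL and 851, 1424 and 953 with PBS, without overlap. Mouse 2 was thus highest for Fabp1, Apoa4 and Rbp2 in both treatments, as for 8 of the 9 brush border genes.

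Markers of other cells are given as summed levels per kilobase of 8 genes each, with calls from limma first without a term for the mouse and then with the block. Goblet cell markers had sums of 10830 to 13654 with LDL and 20737 to 22073 with PBS. Of them, 3 were downregulated (Spink4, Fcgbp and Agr2) and 1 was upregulated (Clca1), and with the block 4 and 1. Paneth cell markers had sums of 19855 to 23676 with LDL and 25713 to 40346 with PBS, with 0 called (unadjusted p below 0.05 for 4), and 3 downregulated and 1 upregulated with the block. Stem cell markers had sums of 3242, 4448 and 4298 with LDL and 5346, 3865 and 8325 with PBS in mice 1, 2 and 3, lower with LDL in mice 1 and 3 and higher in mouse 2. Of these markers 6 were higher and 2 lower by log2 fold change, with a median of 0.39. In this list 0 were called (unadjusted p below 0.05 for 5), and 2 upregulated and 2 downregulated with the block. DESeq2 without the block called 5 goblet cell, 4 Paneth cell and 2 stem cell markers, and edgeR called 3, 0 and 0.

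Markers of fetal-like epithelium had sums of 3555, 312 and 2575 in mice 1, 2 and 3 with LDL and 170, 20.2 and 119 with PBS. In both treatments they were lowest in mouse 2, which was highest in 8 of the 9 brush border genes. Of the 6 that were tested, 0 were called by limma or edgeR without a term for the mouse (unadjusted p below 0.05 for 6), and 6 were upregulated by DESeq2 and with the block. Proliferation markers had sums of 8636 to 9759 with LDL and 9368 to 9621 with PBS, with 0 of 8 called in either fit or by DESeq2 or edgeR (unadjusted p below 0.05 for 1). Enteroendocrine cell markers summed to 2538 to 4075 with LDL and 3546 to 5035 with PBS, and tuft cell markers to 131, 49.7 and 134 with LDL and 92.5, 77.4 and 87.1 with PBS in mice 1, 2 and 3, while 5 of the 7 tested were lower. In each of these lists 0 were called by limma, DESeq2 or edgeR without the block (unadjusted p below 0.05 for 1 and 2), and 1 was downregulated with it. The 4 genes listed for ileal enterocytes summed to 937 to 1499 with LDL and 2279 to 2400 with PBS, and 3 were tested. Guca2a was downregulated by limma. With the block Osr2 was also downregulated, whereas Slc10a2 was upregulated (log2 fold change 1.23), so the list did not share a direction. Without the block DESeq2 called 3 of them and edgeR 1. Stromal cell markers summed to 19.6 to 32.9 with LDL and 30.6 to 39.3 with PBS, and immune cell markers to 40.4 to 45.5 and 47.8 to 62.4, all below the levels of Anpep, Mgam, Vil1 and Sis. Of 2 stromal and 4 immune genes that passed the filter, 0 were called by limma, DESeq2 or edgeR in either fit (unadjusted p below 0.05 for 1 and 0). Whether any of these cell populations had a part in the values of the 9 genes was not tested.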

How the data were processed

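RNA-Seq of organoids from 3 mice gave 6 libraries, grouped by their labels, in which both libraries of a replicate number carry the same animal identifier. Whether mice differed by litter or day is not stated. Per the labels and the methods, the authors removed ribosomal RNA, made stranded libraries, sequenced single-end reads, and used bcl2fastq 2.20, STAR, GRCm39, featureCounts and DESeq2; the annotation release and the strand setting are not given in the sources used here. The deposited signal values are normalized counts of 55416 genes, from which whole reads were recovered for 100% of values (within 0.01 reads), and 54749 genes were named with GENCODE M39. The libraries held between 22061545 and 31073360 counted reads. Reads were not deduplicated by molecular identifiers, and a value of 0 would allow up to 3 reads by counting error.

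Normalized counts plus 1 were taken to log2 for the 18459 genes whose mean reached 10 and compared with limma 3.58.1 in R 4.3.3 (trend, two-sided), with Benjamini-Hochberg adjustment over all genes tested. Adding 1 understates the change of low genes. The main fit had no term for the mouse, because the methods name none for the RNA-Seq comparison. For several other organoid measurements the paper used paired t-tests. After treatment means were removed, the 2 libraries of mice 1, 2 and 3 had correlations over genes of 0.48, 0.42 and 0.46, and libraries of different mice negative ones, so the fit with the mouse as a block is printed where it changes a call. Alternatives were pseudocounts of 0.5 and 5, no filter or a minimum mean of 50, upper-quartile and TMM scaling, DESeq2 1.42.0 and edgeR 4.0.16 on the recovered reads with and without the block, and left-out libraries. Leaving out both libraries rich in ribosomal RNA, and levels per kilobase, were chosen after seeing the data: TPM had been planned, but genes under 200 bases took 67.6% of them in the LDL-treated library of mouse 1 and 13.6% to 16.9% in the others. The fits were also run on simulated data. These held no differences between mice and so could not judge the choice of the block.

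The 9 genes and all lists were chosen with earlier results of these data known. Genes were named by a rule: the 9 genes, called genes of the lists, the 3 largest changes with a mean of at least 100 in each of the 4 enterocyte lists, the 5 most alike genes, and overlapping or similar genes. The genes called only with the block and Hnf4a were named after their values were seen. Values of a few other genes were left out. Promoter and exon sequences were read from GRCm39 at GENCODE M39 positions, and transcripts were aligned with Biopython 1.88 (Python 3.11.15).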

Additional observations from a re-analysis of the deposited data

How the results depend on the processing

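The 9 genes were refitted under 20 alternatives. Alpi was called upregulated in 18 of them and its log2 fold change ranged from 1.93 to 2.48; Vil1 and Mgam kept their direction in all 20 and were called in none. Lct, Dpp4 and Mep1a were called downregulated with the mouse as a block by limma, DESeq2 and edgeR (3 genes each), and when the LDL-treated library of mouse 2 was left out. Without mouse 3 and with the block 1 was called. With libraries left out, 0 to 1 of the 9 genes were called upregulated and 0 to 3 downregulated. Without both libraries rich in ribosomal RNA the log2 fold changes of Sis, Treh and Anpep reversed to 0.48, 0.57 and 0.095. With a single library or both of mouse 3 left out, Sis ranged from −0.69 to 0.22 and Treh from −0.73 to 0.24. Whether the mouse pattern had a part in these reversals was not tested.

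Counts over all genes depended on the fit. The 162 upregulated and 73 downregulated genes became 506 and 245 without a filter, 1048 and 639 with the replicate block in limma, 846 and 348 with DESeq2, 981 and 511 with DESeq2 and the block, 1171 and 588 with edgeR and the block, and 75 and 11 without both libraries rich in ribosomal RNA. With libraries left out they ranged from 0 to 1194 and from 0 to 1137, highest when LDL replicate 2 was left out and 0 without mouse 3. Without mouse 3 and with the block, 277 were upregulated.

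Of the other hydrolases, 3 were upregulated and 5 downregulated with the block in limma, DESeq2 and edgeR, 2 and 1 with DESeq2 or without a filter, 2 upregulated without both libraries rich in ribosomal RNA, and 1 and 4 without mouse 3 and with the block. Of the microvillus genes, 3 were upregulated with the block in each tool, with DESeq2 and without a filter, and 1 was downregulated with the block in limma and without a filter. Of the transcription factor genes, 2 were upregulated with the block in each tool. Of the absorption and lipid genes, 8, 7 and 8 were upregulated with the block in limma, DESeq2 and edgeR (1 downregulated in each), 6 with DESeq2, 5 without a filter, 3 without both libraries rich in ribosomal RNA, and 5 (1 downregulated) without mouse 3 and with the block. With libraries left out, the hydrolases ranged from 0 to 3 upregulated and 0 to 4 downregulated, the microvillus genes from 0 to 4 and 0 to 2, the transcription factors from 0 to 2 and 0 to 2, and the absorption and lipid genes from 0 to 5 upregulated.

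With 3 libraries per treatment the smallest exact two-sided permutation p is 0.1, so single values were not tested that way. Nothing in the labels says that the 2 libraries of a mouse came from separate crypt isolations. Per length of the longest transcript, Dpp4 had 528 with PBS and 335 with LDL and the order of Vil1 and Sis was exchanged with PBS. By that length Alpi and Dpp4 overlapped with PBS, whereas Dpp4 lay above Lct without overlap. With LDL, Dpp4 lay above Treh without overlap.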
